A study of Mus musculus with 24 samples.

Results

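Some clones of mouse embryonic stem cells (ESCs) were edited in Tet2 alone and others in Tet1, Tet2 and Tet3. At D0, that is, in undifferentiated cells, 178 of 22926 gene symbols were lower in both genotypes than in wild-type (WT) clones. These members were selected on the D0 read counts themselves: the 4 libraries of Tet2KO and TKO had to lie below all 3 WT libraries, and each of the 2 knockout means had to lie at least 0.6 below the WT mean on the scale log2(CPM + 1). CPM is the count scaled to a common library total, taken over the first line of each symbol. In all, 183 symbols met these values, and Col2a1, Col6a4, Zscan4a, Zscan4c and Zscan4d were then set aside by name. The clones descend from 1 parental clone of a mouse ESC line with an eGFP reporter knocked into Pou5f1 (Oct4), which the WT clones share. Small insertions or deletions made by CRISPR/Cas9 disrupted Tet1 (Tet1KO, 3 clones), Tet2 (Tet2KO, 2 clones), Tet1 and Tet2 (DKO, 2 clones) or Tet1, Tet2 and Tet3 (TKO, 2 clones), beside 3 WT clones. Polyadenylated RNA of each clone was sequenced at D0 and, after leukemia inhibitory factor (LIF) had been withdrawn, at D6. Each library is 1 clone, so p-values measure the spread between clones of one parental line. The clones were the same at both days, except that Tet1KO clone 2.3 was sequenced at D0 alone and clone 2.2 at D6 alone.

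Tet enzymes oxidize 5-methylcytosine to 5-hydroxymethylcytosine, a step that can end in the loss of the methyl group. Tet1 and Tet2 are the main Tet enzymes of ESCs, and Tet3 is expressed at a low level there. Promoters of many germ cell genes hold CpG sites that are methylated in somatic cells, and a number of these genes are transcribed in ESCs. LIF withdrawal lets ESCs leave the naive state and move towards several lineages.

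The guides that define the genotypes are shown because the groups compared below rest on them. Each is written 5′ to 3′ in lower case, with the adjacent motif that Cas9 needs (PAM), read from the mm9 genome, in capitals. Each site lies in coding sequence, on the minus strand of mm9 like its gene.
Tet1, chr10:62296296-62296315: ggctgctgtcagggagctcaTGG
Tet2, chr3:133148620-133148639: gaaagtgccaacagatatccAGG
Tet3, chr6:83329888-83329907: aaggaggggaagagttctcgAGG

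Tet2 RNA was itself a member. At D0 it stood at 90.8, 91.0 and 84.6 CPM in WT clones O4.1, O4.2 and O4.13, at 80.2, 105 and 83.8 in Tet1KO, at 19.5 and 21.3 in Tet2KO, at 51.8 and 20.8 in DKO, and at 40.1 and 7.51 in clones TKO_8.4 and TKO_8.12. The Tet2KO and TKO clones are low by selection, and the DKO clones, which the selection did not read, also lay below the clones with intact Tet2. At D6 the DKO clones, with 10.8 and 6.17 CPM, again lay below all WT (13.2 to 16.9 CPM) and Tet1KO clones (13.8 to 14.6), but Tet2KO, with 16.2 and 17 CPM, and TKO, with 17.6 and 10.8, did not. A short indel need not lower the RNA of the edited gene, and Tet1 RNA shows this: TKO clones had 535.9 and 38.4 CPM of Tet1 at D0, on either side of the 214 to 416 CPM of WT. The RNA therefore does not check the genotypes. The study's text describes sequencing of the indels and protein blots for them, which were not analysed here. Tet3 had 4.88 to 7.73 CPM in WT and 4.18 and 2.62 CPM in TKO.

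The D0 libraries held 21729346 to 37290208 counts and the D6 libraries 18400463 to 34219640. The upper limit for a gene with no counts, set at 3 counts, was 0.0805 to 0.138 CPM at D0 and 0.0877 to 0.163 CPM at D6, for counting error only. The 7 ESC markers Pou5f1, Sox2, Nanog, Esrrb, Zfp42, Dppa5a and Lin28a summed to 4538 to 5253 CPM in every D0 library. By genotype the sums were 4926 to 5066 in WT, 4860 to 5253 in Tet1KO, 4875 to 5013 in DKO and 4809 to 4934 in TKO. Tet2KO, with 4538 to 4651, lay below all of them. Of 29 mesenchymal and fibroblast markers, Tet2KO libraries held 2539 to 2956 CPM in sum at D0, against 1567 to 1832 in WT and 1186 to 1751 in TKO. The primitive streak and mesoderm list (23 genes) summed to 150 to 155 CPM in Tet2KO and 117 to 172 in TKO, against 80.6 to 111 in WT, and the neuroectoderm list (19 genes) to 252 to 295 in Tet2KO and 189 to 196 in TKO, against 156 to 238 in WT. Their part in the lower genes of Tet2KO and TKO was not tested, and no gene of these lists was a member. In RNA of whole cultures, fewer cells that express a gene and less of its RNA in each cell cannot be told apart.

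The values that selected the members are given as a description. Over the 178 genes the median fall from WT was 0.856 in Tet2KO (range 0.612 to 2.85) and 0.907 in TKO (0.603 to 3.61), and 84 genes fell more in Tet2KO than in TKO. In 36 genes both falls were at least 1. The genes just inside the 0.6 limit were 1700019A02Rik, Pou3f1 and Pvt1, whose smaller falls were 0.603, 0.612 and 0.613, and those just outside were Slc38a5, Omp and Sord, with 0.599, 0.596 and 0.596. The WT mean was 5.24 CPM at the median and ran from 0.788 to 288, with 88 members under 5 CPM and 60 at 10 CPM or more. WT clone O4.1 was the lowest WT clone in 120 members, O4.2 in 31 and O4.13 in 27. The 2 TKO clones differed by more than 1 in 17 members, and the 2 Tet2KO clones in 0.

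Slfn9, a member of the Schlafen family of growth and antiviral regulators, had the largest mean fall of the 178. Its WT clones had 13.7, 13.7 and 10.6 CPM at D0, against 1.59 and 0.804 in Tet2KO and 2.96 and 0.342 in TKO. Tet1KO clones held 9.50, 9.69 and 6.46 CPM, below all WT clones but above all Tet2KO and TKO clones. The DKO clones, with 1.77 and 1.66, lay with the low genotypes. Plac8, a small cysteine-rich protein first described in placenta, was lowest in Tet2KO. It had 20.5, 16.2 and 24.7 CPM in WT, 2.07 and 1.8 in Tet2KO, 7.93 and 9.91 in TKO, 15.7, 10 and 13.2 in Tet1KO and 12.9 and 9.80 in DKO. Rpl39l, a paralog of a ribosomal protein gene that is known for its expression in testis, showed the reverse order, with 99.1, 99.4 and 130 CPM in WT, 51.2 and 46.3 in Tet2KO and 15.8 and 3.8 in TKO. Pmaip1 (Noxa), a p53 target that promotes apoptosis, had 46.4, 70.3 and 47.0 CPM in WT, 6.09 and 12.4 in Tet2KO and 10.2 and 29.0 in TKO. Arl14epl had 49.3, 111 and 54.1 CPM in WT, 13.7 and 8.42 in Tet2KO and 11.7 and 29.9 in TKO, and its Tet1KO and DKO clones, at 59.0 to 89.5 CPM, overlapped WT.

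**Figure D1:**
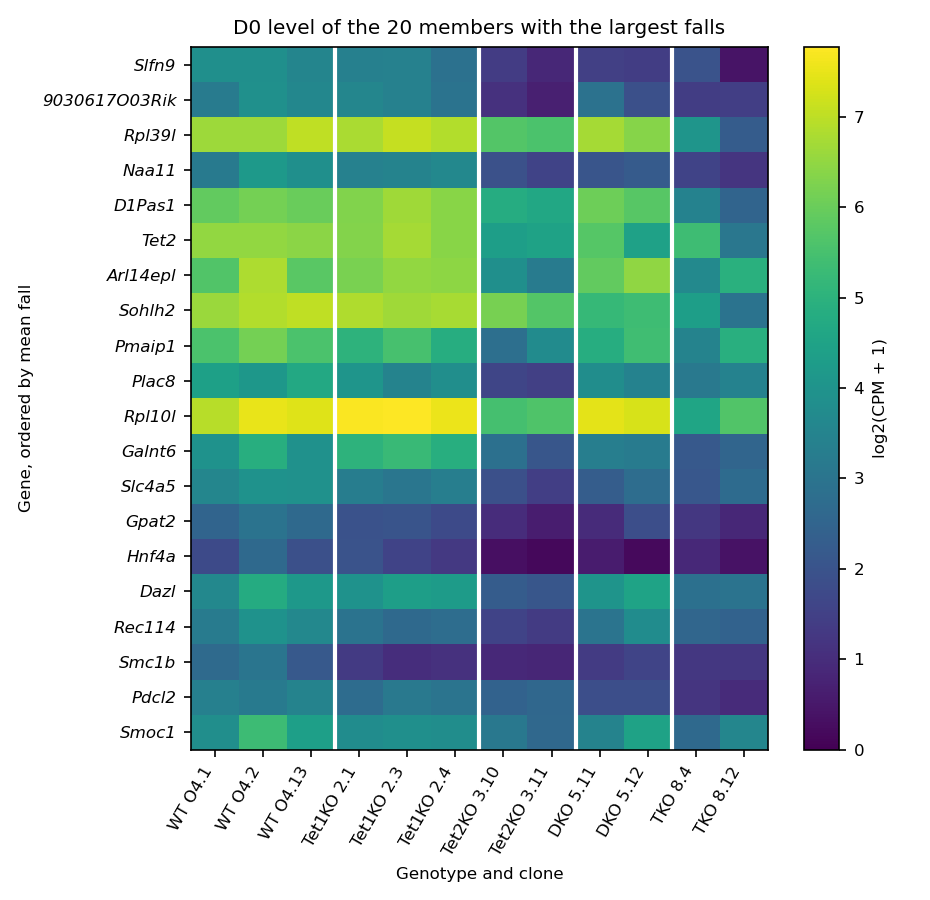
D0 level, as log2(CPM + 1) in colour, of the 20 members with the largest mean fall (rows) in each of the 12 clones (columns, grouped by genotype). Colours are not scaled by gene, so they compare clones within a row. Within each row the Tet2KO and TKO columns are darker than the WT columns by selection. The DKO columns are near WT for Rpl39l, Arl14epl, Rpl10l and Dazl and near the low genotypes for Slfn9 and Hnf4a.

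Members made up 178 of all 22926 symbols, and the gene lists were chosen with earlier results of these data known. Of 41 genes in a list of germline genes under DNA methylation, 39 were in the table and 9 were members: D1Pas1, Dazl, Hormad2, Piwil2, Rpl10l, Smc1b, Sohlh2, Tdrkh and Zcwpw1. They cover several steps of germ cell biology. Dazl binds RNA in germ cells, Sohlh2 is a transcription factor of early gametes, Piwil2 and Tdrkh act in the piRNA pathway, and Smc1b and Hormad2 are proteins of meiotic chromosomes. Another 16 members with a known role or expression in germ cells or gametes were grouped with them after the members had been seen, among them Naa11, Rec114, Gpat2, Syce1, Tex11, Aurkc, Rhox13, Ldhc and Piwil4. Over these 25 genes the median of the mean fall was 1.19 (range 0.674 to 2.37).

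Within this group the clones of Tet1KO and DKO took different places. Dazl had 11.4, 26.8 and 16.6 CPM in WT, 3.82 and 3.19 in Tet2KO, 6.35 and 6.79 in TKO, 14.5, 19.6 and 18.2 in Tet1KO and 15.1 and 21.7 in DKO. Rpl10l, a testis paralog of a ribosomal protein gene, had 122, 181 and 169 CPM in WT, 43.4 and 49.0 in Tet2KO, 22.9 and 49.5 in TKO, 213, 218 and 186 in Tet1KO and 174 and 156 in DKO. For both genes DKO lay within the WT range, although DKO clones carry the Tet2 edit. Sohlh2 differed: WT had 95.9, 116 and 129 CPM, Tet2KO 72.0 and 50.4, TKO 19.5 and 6.83, Tet1KO 114, 101 and 108, and DKO 35.7 and 39.7. Here DKO lay between Tet2KO and TKO. Smc1b differed again, with 5.46, 7.13 and 3.54 CPM in WT and at most 2.02 CPM in every knockout clone, Tet1KO (1.52, 1.03 and 1.14) included.

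The sequence before the start of 4 members with large falls is shown. It sets the CpG-rich promoters of Dazl and Smc1b beside the CpG-poor ones of Slfn9 and Hnf4a. They are examples and do not stand for the other members. Each line gives 150 bases upstream of the start, 5′ to 3′ along the gene, from RefSeq on build GRCm38.p6, in lower case with each CG in capitals.
Dazl, chr17:50293621-50293770, minus strand: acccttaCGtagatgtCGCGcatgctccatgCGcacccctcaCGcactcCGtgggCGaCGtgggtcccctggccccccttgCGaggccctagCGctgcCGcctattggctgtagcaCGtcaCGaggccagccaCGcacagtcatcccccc
Smc1b, chr15:85131958-85132107, minus strand: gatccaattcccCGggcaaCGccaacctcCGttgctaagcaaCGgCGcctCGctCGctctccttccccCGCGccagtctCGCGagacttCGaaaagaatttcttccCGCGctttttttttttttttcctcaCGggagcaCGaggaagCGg
Slfn9, chr11:82991831-82991980, minus strand: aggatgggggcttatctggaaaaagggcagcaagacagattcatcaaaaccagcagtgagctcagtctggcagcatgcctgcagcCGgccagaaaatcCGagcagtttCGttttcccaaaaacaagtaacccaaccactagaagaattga
Hnf4a, chr2:163506707-163506856, plus strand: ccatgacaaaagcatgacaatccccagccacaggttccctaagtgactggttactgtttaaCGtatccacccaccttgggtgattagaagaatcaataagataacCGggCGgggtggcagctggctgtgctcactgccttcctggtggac

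These stretches held 14 CG in Dazl, 17 in Smc1b, 3 in Slfn9 and 3 in Hnf4a. Windows of 300 bases (250 before to 50 after the gene's start) were also read from the mm9 genome for 164 of the 178 members and for 13207 of the 14456 genes tested at D0. The members held 11 CG at the median and the tested genes 19. A ratio of observed to expected CG of at least 0.6 was found in 34.8% of the members' windows and in 65.4% of those of the tested genes. Genes with low expression held fewer CG in general: among tested genes whose WT mean lay between the quartiles of the members, 57.6% reached that ratio, and among the members of that range 33.8%. The 9 germline list members held 17 CG at the median, below the 19 of the tested genes. Of these 9, 6 reached the ratio (66.7%, near the 65.4% of the tested genes), among them Dazl, Smc1b and Tdrkh. Hormad2 (0.433), Piwil2 (0.545) and Sohlh2 (0.559) did not. The windows of Dazl and Smc1b, with 30 and 29 CG, were richer than that of the median germline member. The letters TCCCGC, searched on both strands, were in 27.4% of the members' windows and 34.2% of all (10 of the 18 windows, 55.6%, of the 20 members with the largest falls), and CACGTG in 8.54% and 9.81%. These shares are descriptions with no test.

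The members lay on 19 autosomes and on the X chromosome. Of the 164 members that GENCODE vM1 places once on mm9, 20 were on chromosome 7 (12.2%, against 9.29% of all placed symbols) and 19 on chromosome 1 (11.6% against 5.50%). There were 16 sets of members whose neighbours lay within 500000 bases, such as Slfn9 with the pseudogene Slfn10-ps on chromosome 11, Usp29 with Aurkc and H19 with Ascl2 on chromosome 7, and Gm8300, Gm2016 and Gm5662 on chromosome 12.

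Genes of the 2-cell-like state, a rare state of ESC cultures that shares transcripts with the 2-cell embryo, formed a smaller group. Of 32 listed genes, 6 were members (Gm13119, Gm2022, Gm5039, Gm5662, Gm8300 and Usp26), beside 178 of all 22926 symbols. Gm2016, which lies beside Gm8300 and Gm5662, was added after the members had been seen. Zscan4a, Zscan4c and Zscan4d, also genes of this state, met the same values but were set aside by name. Gm8300 had 0.937, 1.56 and 2.08 CPM in WT, 0.0796 and 0.402 in Tet2KO, 0.276 and 0.417 in TKO, 1.22, 1.75 and 1.55 in Tet1KO and 3.51 and 3.08 in DKO. Gm5662 had 0.625, 1.12 and 1.66 CPM in WT, 0.199 and 0.456 in Tet2KO, 0.197 and 0.417 in TKO, 1.14, 1.60 and 1.35 in Tet1KO and 3.63 and 2.49 in DKO. In both genes the DKO clones were the highest of all clones, above every WT clone. The same held for Gm13119, Gm2016, Gm2022 and Gm5039, but Usp26 went the other way, with 1.01, 4.68 and 4.16 CPM in WT and 0.702 and 2.35 in DKO. All these levels are a few CPM or less, several near the limit of 3 counts, and genes of this family share near-identical copies, so the split of reads among them is uncertain. The whole list of 32 summed to 451 to 560 CPM in WT, 496 to 616 in Tet1KO, 640 and 677 in DKO, 369 and 411 in Tet2KO and 372 and 533 in TKO.

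**Figure D2:**
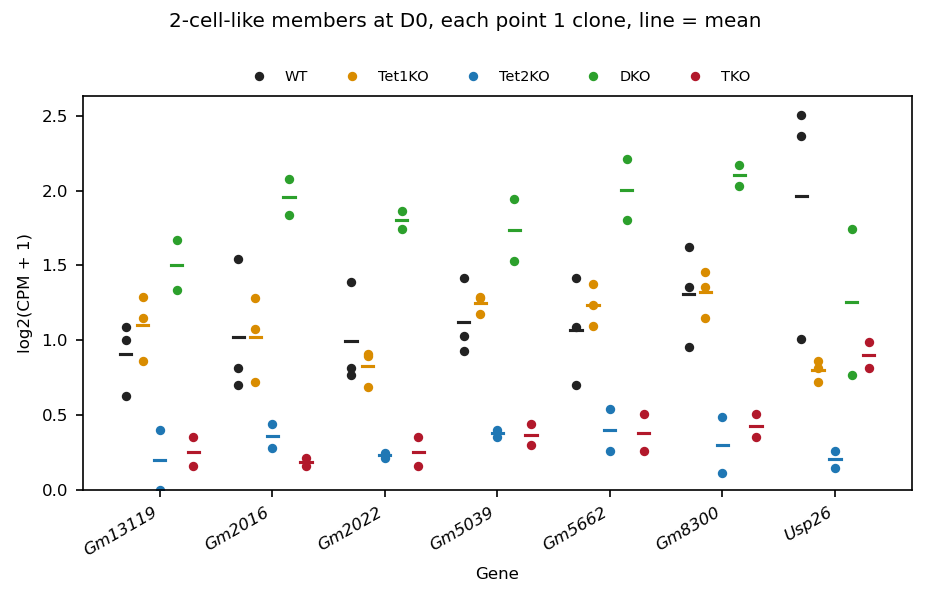
D0 level, as log2(CPM + 1), of 7 members tied to the 2-cell-like state; each point is 1 clone and each short line the mean of a genotype. For the 6 genes other than Usp26 both DKO clones lie above all WT clones, and the Tet2KO and TKO clones lie below by selection.

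No member came from the lists of naive pluripotency, general pluripotency, primitive streak and mesoderm, neuroectoderm, epithelial and junction genes, metallothionein and oxidative stress, or sterol and lipid synthesis. Imprinted genes gave 3 of 51 (Ascl2, H19 and Usp29) and p53 targets 3 of 25 (Pmaip1, Trp73 and Ephx1), beside 178 of all 22926 symbols. The lists of formative pluripotency, endoderm, trophectoderm, BMP, Wnt and FGF signalling, interferon response, hypoxia, DNA methylation machinery and genes linked to endogenous retroviruses gave 1 member each, in that order Pou3f1, Hnf4a, Ascl2, Smad6, Ascl2, Fgfr3, Ifitm3, Ankrd37, Tet2 and Nlrp4f. Hnf4a, a nuclear receptor of endoderm and liver, had 2.38, 5.24 and 2.70 CPM in WT, 0.239 and 0.134 in Tet2KO, 0.868 and 0.304 in TKO, 2.96, 1.98 and 1.43 in Tet1KO and 0.495 and 0.138 in DKO. H19, an imprinted non-coding RNA, had 3.32, 3.48 and 2.5 CPM in WT, 1.79 and 1.29 in Tet2KO and 0.828 and 0.645 in TKO. Ephx1, an epoxide hydrolase, was low in every knockout, with 18.3 to 19.3 CPM in WT and 7.24 to 14.7 CPM in the 9 knockout clones. Groups drawn up by known role after the members were seen held 13 genes of immunity, 10 of matrix and adhesion, 18 metabolic enzymes and transporters, 10 transcription factors and 6 zinc finger genes, with median falls of 0.806 to 0.945.

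Tet1KO and DKO were not read by the selection, but the WT libraries that select the members also enter their difference from WT, so these values are a description. Each gene was placed on a scale where 0 is the mean of the Tet2KO and TKO means and 1 is the WT mean. The median place was 0.757 in Tet1KO and 0.520 in DKO. Tet1KO lay 0.24 below WT at the median (-0.24 on log2(CPM + 1)) and DKO 0.47 below (-0.47). The DKO mean was below the Tet1KO mean in 132 of 178 genes and above the WT mean in 24. DKO lay lowest against the low genotypes, and below their mean, in Aire, Mapt, Slc2a5, Card6 and Siglec5, and it lay farthest above them in Arl14epl, Rpl39l, D1Pas1, Rpl10l and 4930591A17Rik.

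The condition that selected the members, all clones below all WT clones and a mean at least 0.6 lower, was met by Tet1KO in 20 of the 178 members (11.2%), beside 0.934% of the 14456 tested genes, and by DKO in 65 (36.5%), beside 2.6%. Smc1b, Gpat2, Plac8, Pmaip1, Rec114 and Ephx1 were among the 20. Tet1KO clones lay above all Tet2KO and TKO clones in 127 members (71.3%, all tested genes 12.6%), and DKO clones in 96 (53.9%, all 13.9%). Because members were selected for high WT and low Tet2KO and TKO values, nothing is read from these shares. All Tet1KO clones lay above all WT clones in 10 members (5.62%, all 9.86%), among them Rpl10l, D1Pas1, Lats2 and Smad6. All DKO clones did so in 9 (5.06%, all 15.9%), of which 6 are the genes of the 2-cell-like group other than Usp26 and the others are 4930591A17Rik, D5Ertd605e and Zfp951.

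**Figure D3:**
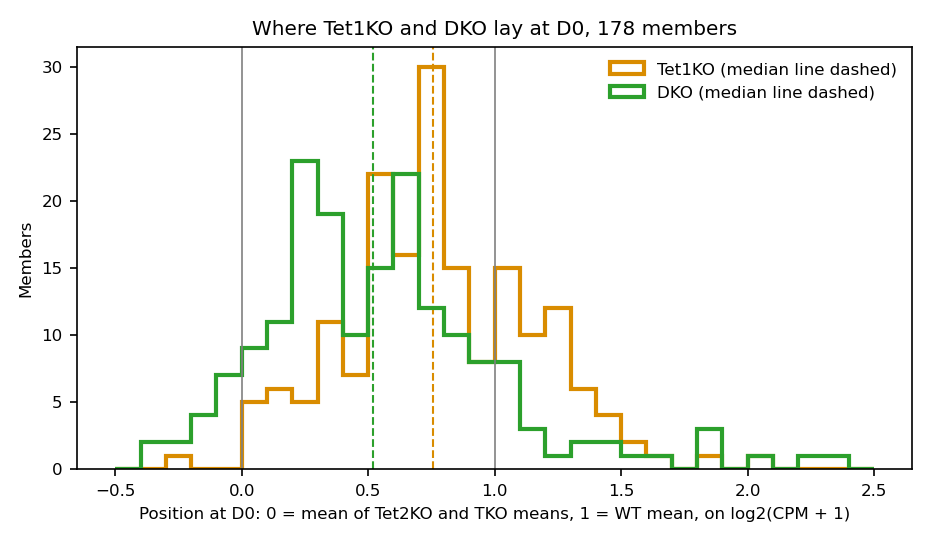
Number of members (vertical axis) by the place of Tet1KO and of DKO at D0 between the low genotypes (0) and WT (1) on log2(CPM + 1); dashed lines are the medians, 0.757 for Tet1KO and 0.520 for DKO. Both spread from below 0 to above 1.

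The contrast of DKO with Tet1KO at D0 compares libraries that the selection did not read, although the fit over all genotypes took its spread and scaling partly from the selecting libraries. It asks whether loss of Tet2 in addition to Tet1 moved these genes. No member passed an adjusted p under 0.05 with a change of over 2-fold in either direction (0 lower, 0 higher), and among all 14456 genes the share was 0% lower and 0% higher (quasi-likelihood test of edgeR, p adjusted by Benjamini-Hochberg; smallest adjusted p of a member 0.159). At an unadjusted p under 0.05 and over 2-fold, 31 members were lower in DKO (17.4%, all genes 0.92%) and 4 higher (2.25%, all 0.484%). DESeq2 called 13 members lower (7.3%) and 0 higher, against 0.167% and 0.0401% of the genes to which it gave an adjusted p. The median log2 fold change was -0.29 over the members and -0.01 over all genes, and 132 members (74.2%) were below 0, against 51.3% of all. Sohlh2 had a log2 fold change of -1.50 (SE 0.303, adjusted p = 0.216, edgeR) and Slfn9 of -2.30 (SE 0.534, adjusted p = 0.256, edgeR). Dazl, with 0.09 (SE 0.287), stayed near 0. The test did not pass for any of them, which does not show that the genotypes were alike. A fit on the Tet1KO and DKO libraries alone, added after the data were seen, tested 176 members and called 21 lower in DKO (11.9%, all genes 0.3%) and 4 higher (2.27%, all 0.186%). The lower ones included Slfn9, Sohlh2, Naa11, Hnf4a, Aire and Tet2, and the higher ones were Gm2016, Gm2022, Gm5662 and Gm8300 of the 2-cell-like group. At an unadjusted p under 0.05 and over 2-fold that fit had 33 members lower (18.8%, all 0.979%) and 5 higher (2.84%, all 0.55%).

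At D6 the comparison with WT asks which of these genes were still low after LIF withdrawal, in libraries that the selection did not read, although from the same clones. After edgeR's filter 167 of the 178 members were tested; the other 11, such as Ly6k and Myot, were too low at D6. In Tet2KO, 49 members were lower than in WT (29.3%), beside 9.45% of the 15435 genes tested, and 2 were higher (1.2%), beside 4.81%. The median log2 fold change was -0.60 over the members and -0.03 over all genes. The 10 members with the smallest p were Plac8, Fgfr3, Ifitm3, Lats2, Lamb3, Htra1, Arrdc4, Itgb4, Pid1 and Ifnlr1, all lower. Of the groups by role, 8 of 12 tested immunity genes and 6 of 10 matrix and adhesion genes were lower, with 0 higher. So were 3 of 18 metabolic enzymes and transporters (0 higher), 3 of 10 transcription factors (1 higher) and 1 of 6 zinc finger genes (0 higher). Whole lists also had lower genes, among them 15 of 27 tested interferon response genes (0 higher). Lower too were 11 of 29 mesenchymal and fibroblast markers (1 higher) and 11 of 25 epithelial and junction genes (0 higher). Ifitm3 is the 1 member in these lists. Larger shares were lower in primitive streak and mesoderm (19 of 23), trophectoderm (15 of 18) and endoderm (12 of 19), with 0 higher in each. Wnt signalling had 16 of 31 lower and 1 higher, and naive pluripotency 1 of 19 lower and 6 higher. Of the germ cell genes 2 of 23 tested were lower (Hormad2 and Gpat2), and of the 2-cell-like group 0 of 7; the whole germline list had 5 of 36 lower and 2 higher. The difference between groups was not tested.

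Lamb3, a chain of the basement membrane protein laminin 332, had 20.7, 12.9 and 19.5 CPM in WT at D6 and 1.56 and 1.95 in Tet2KO, a log2 fold change of -3.28 (SE 0.351, adjusted p = 0.00264, edgeR). Itgb4, a chain of the integrin that binds this laminin, had 7.07, 8.20 and 8.14 CPM in WT and 2.03 and 1.53 in Tet2KO (log2 fold change -2.08, SE 0.316, adjusted p = 0.00434). For both genes the Tet1KO, DKO and TKO clones, at 8.11 to 24.4 CPM of Lamb3 and 5.30 to 9.49 of Itgb4, lay above both Tet2KO clones. Lats2, a kinase of the Hippo pathway, had 55.3, 37.0 and 54.2 CPM in WT and 9.53 and 8.64 in Tet2KO (log2 fold change -2.37, SE 0.237, adjusted p = 0.00237). Ifitm3, an antiviral membrane protein that also marks early germ cells, had 53.7, 40.4 and 45.9 CPM in WT and 14.1 and 10.3 in Tet2KO (log2 fold change -1.88, SE 0.330, adjusted p = 0.00560). Plac8 had 18.0, 29.0 and 20.3 CPM in WT and 2.62 and 2.42 in Tet2KO (log2 fold change -3.11, SE 0.440, adjusted p = 0.00410). The clones of the 2 genotypes did not overlap in any of these genes. H19 had 61.7, 53.2 and 145 CPM in WT and 8.53 and 9.38 in Tet2KO, and the interferon-inducible GTPase Irgm2 32.2, 28.5 and 34.9 against 9.41 and 3.38. Hnf4a was at 0.0294 and 0.0355 CPM in Tet2KO, under the limit that a count of 0 allows, and at 5.60, 0.539 and 2.77 in WT, so its change passed the test (adjusted p = 0.0116, edgeR) but no fold is given.

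**Figure D4:**
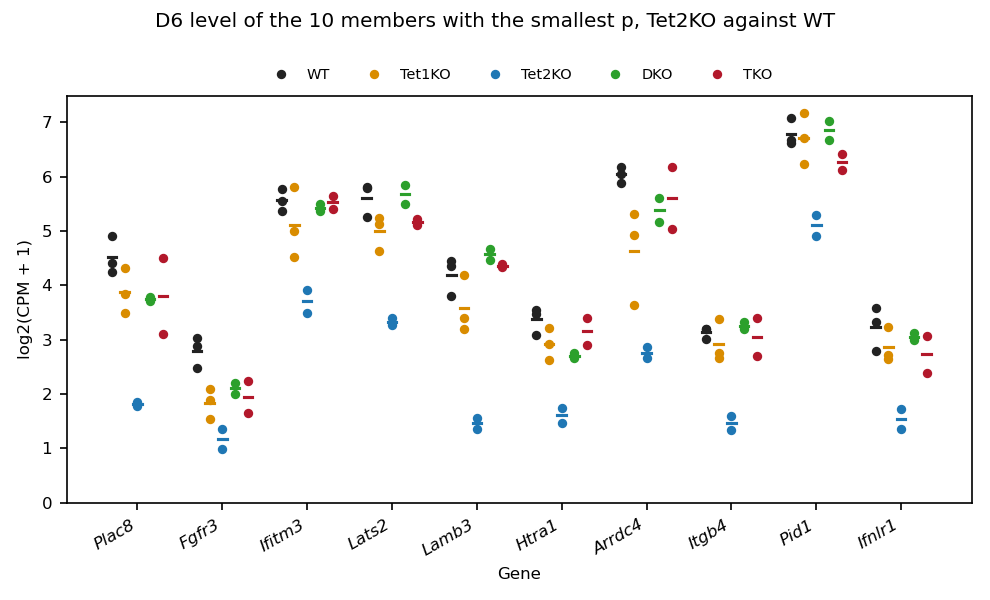
D6 level, as log2(CPM + 1), of the 10 members with the smallest p in Tet2KO against WT; each point is 1 clone and each short line the mean of a genotype. Both Tet2KO clones lie below all WT clones and below all DKO and TKO clones in each gene.

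Pou3f1, a POU factor of the formative and primed state, was one of the 2 members that were higher in Tet2KO at D6, with 150 and 155 CPM against 63.3, 79.0 and 59.2 in WT (log2 fold change 1.24, SE 0.371, adjusted p = 0.0316, edgeR). The other was D630023F18Rik. Several lineage marker lists differed in the Tet2KO group at D6. The trophectoderm list (18 genes) summed to 269 and 290 CPM in Tet2KO against 1044 to 2259 in WT, the mesoderm list (23 genes) to 131 and 174 against 590 to 1829, and the endoderm list (23 genes) to 425 and 460 against 986 to 1616, with 1 gene of each list at 0 in Tet2KO. The mesenchymal and fibroblast list (29 genes), higher in Tet2KO at D0, summed to 1676 to 1686 CPM in Tet2KO and 2619 to 5893 in WT at D6. The neuroectoderm list (19 genes) went the other way, at 260 to 268 CPM in Tet2KO and 163 to 196 in WT, with 1 gene at 0 in each, and 4 of its 15 tested genes (Hes5, Pax6, Sox1 and Tubb3) were higher and 0 lower. The ESC markers summed to 3034 and 3209 CPM in Tet2KO and 1619 to 2699 in WT. The part of these cells in the 49 lower members was not tested. The count of lower members was 9 without clone Tet2_KO_3.10 (5.17%, all genes 1.15%), 0 without clone Tet2_KO_3.11 (all genes 0%) and 31 without WT clone O4.13 (18.6%, all 6.13%). It was 45 without O4.1 (26.5%, all 6.65%) and 38 without O4.2 (22.8%, all 10.4%). The count of higher members was 0 without either Tet2KO clone (all genes 0.779% and 0%), O4.1 (3.22%) or O4.13 (2.64%), and 10 without O4.2 (5.99%, all 6.72%). With 1 clone of Tet2KO left, that clone is assumed to vary like the other genotypes.

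In TKO, Tet1KO and DKO at D6, 0 members were called lower and 0 higher against WT (edgeR), and the shares over all 15435 genes were 0% in each direction for TKO, 0% and 0% for Tet1KO and 0% and 0% for DKO. At an unadjusted p under 0.05 with over 2-fold, 8 members were lower and 29 higher in TKO (4.79% and 17.4%, all genes 3.23% and 3.27%), 11 and 2 in Tet1KO (6.59% and 1.2%, all 1.05% and 1.52%), and 13 and 20 in DKO (7.78% and 12%, all 2.59% and 2.57%). DESeq2 gave no adjusted p to 22 members in TKO and to 11 each in Tet1KO and DKO. Of the others it called 5 lower and 11 higher in TKO (3.21% and 7.05%, all genes 2.04% and 1.24%). It called 3 lower and 0 higher in Tet1KO (1.8% and 0%, all 0.117% and 0.183%), and 6 lower and 8 higher in DKO (3.59% and 4.79%, all 0.574% and 0.659%). The smallest adjusted p of a member in TKO was 0.0641, that of Fam111a, a gene named here after its values were seen. Piwil2 and Zcwpw1, a histone reader of meiosis, followed with adjusted p = 0.0643 each (edgeR). Piwil2 had 3.04, 7.20 and 3.56 CPM in WT and 18.6 and 13.3 in TKO (log2 fold change 1.81, SE 0.400). Dazl had 1.52, 9.51 and 2.26 CPM in WT and 14.6 and 19 in TKO (log2 fold change 1.94, SE 0.583, adjusted p = 0.0962, edgeR). In these genes both TKO clones lay above every WT clone at D6, the reverse of the order that selected them at D0, but the difference did not pass the test. Leaving out WT clone O4.2, which was the highest WT clone for Dazl, Piwil2, Smc1b (25.4 CPM against 2.12 and 5.85) and Arl14epl (20.5 against 1.09 and 5.06), gave 24 higher and 4 lower members in TKO (14.4% and 2.4%, all genes 2.44% and 2.24%) and 2 higher and 0 lower in DKO (1.2% and 0%, all 0.0389% and 0%). Leaving out clone TKO_8.4 gave 1 member in each direction in TKO (0.595%, all genes 0.889% higher and 0.8% lower).

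Tet2KO and TKO, which were low together at D0, were therefore compared with each other at D6, a contrast added after the data were seen. It called 35 members lower in Tet2KO (21.0%, all genes 6.01%) and 3 higher (1.8%, all 2.63%), the latter Dgat2, Eya1 and Pou3f1. The median log2 fold change was -0.88 over the members and -0.04 over all genes. Slfn9 had 0.412 and 0.178 CPM in Tet2KO and 8.09 and 2.4 in TKO (log2 fold change -4.08, SE 0.587, adjusted p = 0.00662, edgeR). Lamb3 had 19.9 and 19.3 CPM in TKO (log2 fold change -3.46, SE 0.367, adjusted p = 0.00318, edgeR), and Arl14epl 1.59 and 0.888 in Tet2KO against 27.5 and 17 in TKO (log2 fold change -4.13, SE 1.02, adjusted p = 0.0266, edgeR). In each of these genes the Tet2KO clones lay below the TKO clones with no overlap. This contrast shares its Tet2KO libraries with that against WT.

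Tet1KO and DKO also show what LIF withdrawal did to the members in libraries that the selection did not read, again with the spread taken over all genotypes. In Tet1KO, 89 of 178 members were lower at D6 than at D0 (50%), beside 11.2% of 15639 tested genes, and 22 were higher (12.4%), beside 19.9%. In DKO, 56 were lower (31.5%, all genes 10.6%) and 26 higher (14.6%, all 18.6%). Since members had to be expressed at D0, the same shares were taken over the 12854 genes whose D0 WT mean reached the lowest of any member: 11.5% were lower and 13.7% higher in Tet1KO, and 11.6% lower and 13.8% higher in DKO. The 11 members too low to be tested at D6 entered this fit through D0 alone, where members had to be expressed. Among the 167 members that passed the D6 filter, 78 were lower (46.7%, all such genes 10.1%) and 22 higher (13.2%, all 20.3%) in Tet1KO, and 49 lower (29.3%, all 10%) and 26 higher (15.6%, all 18.9%) in DKO. The Tet1KO and DKO libraries alone gave 89 lower (50.6%, all 10.9%) and 24 higher (13.6%, all 20.3%) in Tet1KO, and 60 lower (34.1%, all 10.7%) and 28 higher (15.9%, all 19.2%) in DKO. The median log2 fold change was -1.14 in Tet1KO and -0.55 in DKO, against 0.00 and -0.01 over all genes. Of the lower members 55 were shared, which is 61.8% of the Tet1KO list and 98.2% of the DKO list, and 19 higher members were shared (86.4% and 73.1%). The test of whether the change between days differs between DKO and Tet1KO called 0 members in each direction (all genes 0% and 0%, edgeR, smallest adjusted p of a member 0.881), with 24 members higher (13.5%, all genes 1.27%) and 1 lower (0.562%, all 0.723%) at an unadjusted p under 0.05 and over 2-fold.

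**Figure D5:**
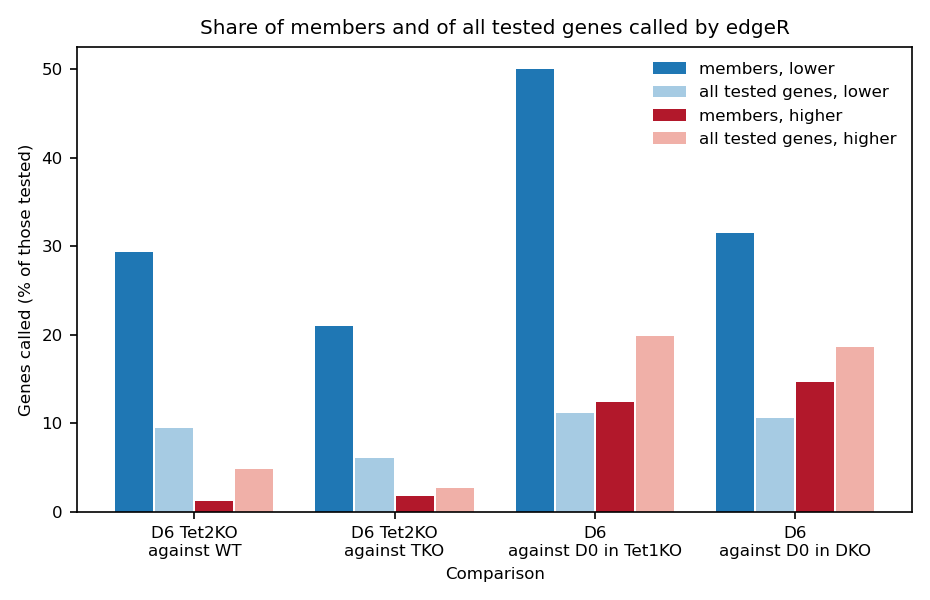
Percent of tested members and of all tested genes that edgeR called lower or higher (adjusted p under 0.05 and over 2-fold) in 4 comparisons. Members were called lower in 29.3%, 21.0%, 50% and 31.5%, against 9.45%, 6.01%, 11.2% and 10.6% of all tested genes.

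Of the 25 germ cell genes grouped by role after the members were seen, 17 were called lower at D6 than at D0 in Tet1KO and 12 in DKO, with 0 called higher in either. The shares of all tested genes were 11.2% lower and 19.9% higher in Tet1KO and 10.6% and 18.6% in DKO, and they also stand beside the groups and lists that follow. On the whole list of germline genes under DNA methylation, 14 of 37 tested were lower and 3 higher in Tet1KO (median log2 fold change -0.42), and 7 were lower and 4 higher in DKO (median -0.14). Rpl10l went from 213, 218 and 186 CPM to 9.26, 3.57 and 12.2 in Tet1KO (log2 fold change -4.82, SE 0.452, adjusted p = 5.69e-08, edgeR) and from 174 and 156 to 19.6 and 15.1 in DKO (-3.46, SE 0.515, adjusted p = 2.08e-05). D1Pas1, a helicase gene expressed in testis, had log2 fold changes of -4.23 (SE 0.432) and -2.53 (SE 0.487), and Rpl39l of -4.21 (SE 0.494) and -2.41 (SE 0.554), all called. Smc1b, with 0.69 (SE 0.675, adjusted p = 0.384), did not pass the test in Tet1KO. Tdrkh had higher values at D6 than at D0, with no overlap, from 6.54, 4.98 and 4.78 CPM to 11, 10.8 and 11.1 in Tet1KO and from 7.26 and 5.20 to 13.5 and 11.7 in DKO, but its log2 fold change of 0.81 in each (SE 0.186 and 0.227) was under the 2-fold limit. In the 2-cell-like group 6 of 7 were lower in Tet1KO and 4 in DKO, and Usp26 was not called. Of its list, 13 of 21 tested genes were lower and 1 higher in Tet1KO, and 7 lower and 1 higher in DKO. Other members with large falls in both genotypes were Arl14epl and 9030617O03Rik, and 4930591A17Rik went from 3.61, 4.33 and 3.64 CPM to 0.127, 0.154 and 0.101 in Tet1KO. Tet2 fell too, by 2.87 on the log2 scale in Tet1KO (adjusted p = 7.27e-06, edgeR).

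Among the members called higher, Prtg, a receptor of the immunoglobulin superfamily in the early embryo, went from 8.02, 10.5 and 7.20 CPM to 342, 745 and 198 in Tet1KO (log2 fold change 5.43, SE 0.461, adjusted p = 1.72e-08, edgeR) and from 5.45 and 6.26 to 278 and 270 in DKO (5.34, SE 0.570). Pou3f1 rose from 7.79, 8.21 and 6.62 CPM to 70.4, 50.4 and 130 in Tet1KO (log2 fold change 3.27, SE 0.319) and by 3.90 (SE 0.407) in DKO. Kctd12b and Irgm2 were also among the largest rises in both genotypes, as was the protease gene Tmprss13 in DKO. H19 rose with log2 fold changes of 2.56 (SE 0.432) and 3.31 (SE 0.540), and of 46 tested imprinted genes 18 were higher and 1 lower in Tet1KO and 17 higher and 0 lower in DKO, beside the 19.9% and 18.6% of all genes that were higher. Among the 49 members that were lower in Tet2KO than in WT at D6, 12 rose between the days in Tet1KO (24.5%). Prtg, H19, Lats2, Lamb3 and Irgm2 were among them. Another 14 fell (28.6%), such as Slfn9, Htra1 and Arl14epl, and 23 were not called. Of all 167 members that passed the D6 filter, 13.2% rose and 46.7% fell in Tet1KO. Of all tested genes 19.9% rose and 11.2% fell. The difference between the 49 and the other members was not tested.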

How the data were processed

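The deposited tables hold raw read counts per gene line for each clone, 1 table per day. Per the labels and the study's methods, the authors made polyadenylated paired-end libraries and aligned them with STAR 2.5.1 to mm9; the sources name HTSeq and featureCounts for counting and state no strand, so reads of overlapping genes cannot be told apart. Groups came from the sample labels. The members and gene lists were chosen with earlier results of these data known.

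CPM used the first of several lines of a symbol (31928 lines, 22926 symbols); 45 members had more than 1 line. Tests used edgeR 4.0.16 in R 4.3.3 (quasi-likelihood, TMM scaling, filterByExpr with a minimum count of 10, Benjamini-Hochberg adjustment), with calls at an adjusted p under 0.05 and a log2 fold change beyond 1; D0, D6 and both days were fitted separately, each over all genotypes. DESeq2 1.42.0, other scalings, no filter, replicate blocks and left-out clones were alternatives. Fits without TMM or on Tet1KO and DKO libraries alone, totals over all lines, the contrast of Tet2KO with TKO at D6, the test of the day effect, the background of expressed genes and the groups by role were chosen after seeing the data. The scripts were tested on simulated data. Python 3.11.15, pandas 2.3.3, numpy 2.4.6 and matplotlib 3.10.9 served for summaries. Spike-in scaling was not used here.

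Genes named are the 20 with the largest falls, list members, the 10 with the smallest p among those called at D6, the 5 largest changes between days in each direction, those nearest the 0.6 limit, the 5 highest and 5 lowest rises of DKO, and the Tet genes; others, such as Gm2016 or Fam111a, were named after their values were seen. Between days, clones are paired by the labels, and the deviations of the same clone at both days correlated at r = 0.0613 to 0.164. One gene that this rule names is not reported here.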

Additional observations from a re-analysis of the deposited data

How the results depend on the processing

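Gene membership moved with the rule: 286 genes met it with a pseudocount of 0.5, 36 with a fall of at least 1, 156 with all lines of a symbol summed, 128 with library totals over all lines, and 154 to 283 when 1 clone was left out (283 without WT clone O4.1, 274 without clone TKO_8.12). For DKO against Tet1KO at D0, 5 members were lower with no filter, 13 with DESeq2 and 21 (with 4 higher) in a fit of the Tet1KO and DKO libraries alone, and leaving out a clone gave 0 to 0. For Tet2KO against WT at D6, leaving out a clone gave 0 to 45 lower (9 and 0 with 1 Tet2KO clone, 31 without WT clone O4.13) and 0 to 10 higher members, and 1 was higher without TMM. For TKO, no filter gave 1 lower and 2 higher, DESeq2 5 and 11, and leaving out a clone 0 to 4 and 0 to 24. DESeq2 called 3 lower in Tet1KO and 6 lower and 8 higher in DKO, where leaving out a clone gave 0 to 2 higher. Between days, leaving out a clone gave 83 to 91 lower and 21 to 29 higher in Tet1KO and 38 to 49 and 23 to 27 in DKO. The cause was not tested.

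Deviations of same-numbered clones of different genotypes correlated at r = -0.0558 to 0.268 at D0 (21 pairs, 8 over 0.1). At D6 they correlated at -0.291 to 0.262 (21 pairs, 5 over 0.1). Pairs with different numbers were not computed, and in groups of 2 clones the deviations mirror each other. Whether same-numbered clones share more than a number therefore cannot be told. With a replicate block by that number, 51 members were lower and 4 higher in Tet2KO at D6. With clone as the block, the change between days gave 87 lower and 20 higher in Tet1KO and 60 and 29 in DKO. Over the pairs of a named gene's called change and an alternative, 971 kept direction and call, 101 kept direction without the call, and 0 reversed. Depth limits the members near 3 counts, such as the 2-cell-like genes.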
